A study of Bos indicus with 8 samples.

Results

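The 10 genes described here encode basement membrane proteins and the integrins that hold cells to them. They are the laminin chain genes LAMB1, LAMC1 and LAMA1, the collagen IV genes COL4A1 and COL4A2, the collagen XVIII gene COL18A1, the nidogen gene NID1, the fibronectin gene FN1 and the integrin subunit genes ITGB1 and ITGA6. Members were all probes whose gene symbol in the platform annotation was one of these 10, which gave 12 of the 43794 probes on the array and 10 of the 15229 genes it names. LAMC1 had 3 probes and each other gene had 1. The samples were cumulus cells, which surround the bovine oocyte, taken after the complexes had been cultured for 6 h. The treated arm received FSH, follicle-stimulating hormone of recombinant human origin, at 0.5 µg/ml, and the control arm did not. Both arms received adenosine (3 mM), 17β-oestradiol (1 µg/ml) and fetal bovine serum (10%), so the comparison addressed what FSH adds when adenosine is present. The complexes came from follicles of 3 to 6 mm in slaughterhouse ovaries, and the labels give Bos indicus as the organism and a number per pool of 10, without its unit. There were 4 FSH pools and 4 control pools, which the labels call biological replicates, and each FSH pool shared 2 arrays of opposite dye orientation with the control pool of the same number.

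A basement membrane is a thin sheet of matrix under or around cells. Laminins, trimers of an alpha, a beta and a gamma chain, assemble at the cell surface, collagen IV forms another network, and nidogen and the proteoglycan perlecan join them. Integrins, dimers of an alpha and a beta subunit, bind this matrix from the cell and pass signals inward. In the ovary a basal lamina encloses the follicle, and bovine granulosa cells also lay down patches of basement membrane material between themselves. Fibronectin belongs to looser matrix and binds integrins as well.

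Ratios are log2 values of FSH over control from the series matrix, averaged over the dye orientations of each replicate, so that 1 unit is a doubling. Pool signals are normalized log2 channel signals from the scanner files and compare pools for 1 probe only, not probes with each other. FSH samples carried Cy5 on one slide (here the Cy5 slide) and Cy3 on the other (the Cy3 slide). Median spot signals of the arrays ran from 55.8 to 184.3 for the Cy3 dye and from 26.6 to 59.0 for Cy5, and the number of arrays limits the precision. A probe was tested when it exceeded a limit set from the negative control spots on both arrays in at least 3 of 4 pools of either arm. That held for 30571 probes and for 11 of the 12 members, the exception being COL18A1. Control pool 3 stood apart, with 46.2% and 33.8% of probes above its limits (68.9% to 84.0% in the other control channels). Its limits were higher, at 192.1 for Cy3 and 82.2 for Cy5. Limits in the other control channels were 102.3 to 121.4 and 20.8 to 43.4. Its median spot signals, 184.3 and 59.0, were the highest of each dye, so the low shares came with raised limits, not weak signal. Named genes whose mean moved by over 1.5 times without replicate 3 are given without it as well. Of 16 cumulus and granulosa markers, 14 were tested, and AMHR2 and FOXL2 were too dim. No probe passed the limma test at an adjusted p of 0.05 (0 of 30571, 0%), and no gene did (0 of 11883, 0%). The smallest adjusted p was 0.174 over probes and 0.261 over genes. Without adjustment, a p under 0.05 was reached by 1860 probes (6.08%) that were higher with FSH and 1467 (4.8%) that were lower. The split was 1141 higher and 1372 lower with ratios computed from the scanner files by loess, and 1711 and 513 with median centring without loess. In bulk pools, fewer cells of a type and less RNA per cell cannot be told apart.

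Among the 11 tested member probes, 0 passed the adjusted limma test, and adjusted p lay between 0.417 and 0.947. NID1 was past the limit through the FSH arm alone, where it was high, so it is left out of the counts of calls. Of the other 10, past the limit in both arms, 1 was higher with FSH at an unadjusted p under 0.05 (FN1), against 6.59% of all probes past the limit in both arms. None was lower (0 of 10), against 5.13%. Mean ratios were above 0 for 4 of these 10 and below 0 for 6. Not one of the 11 had the same sign in all 4 replicates, whereas 19.9% of all tested probes did. An exact sign-flip permutation test on 4 replicates cannot go below a two-sided p of 0.125, and the members' values lay between 0.25 and 0.875. Over the 9 tested genes, with the brightest LAMC1 probe standing for that gene, the median ratio was 0.10, against 0.0039 over all 11883 genes. Without NID1 the median over the other 8 was 0.040.

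**Figure D1:**
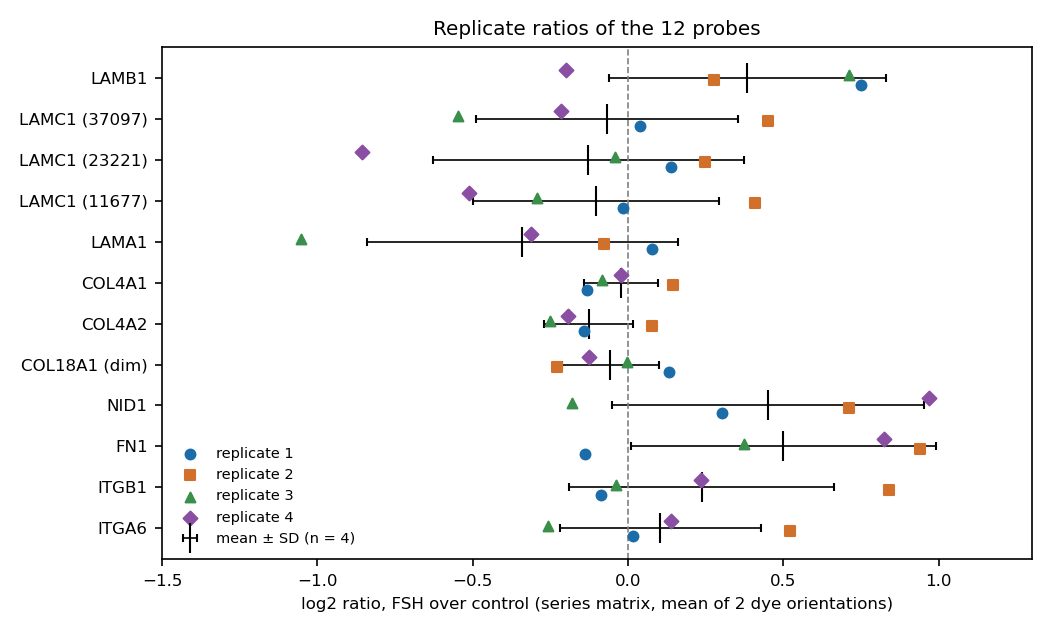
Log2 ratio of FSH over control for the 12 member probes (horizontal axis), with 1 symbol for each of the 4 replicates and a bar for the mean ± SD. Every tested probe has replicates on both sides of 0, and replicate 3 of LAMA1 lies farthest from 0 at -1.05.

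LAMB1 encodes the beta 1 chain found in most laminin trimers. Its pool signal was 8.34, 8.34, 7.55 and 7.40 in FSH pools 1 to 4 and 7.93, 8.13, 7.26 and 7.74 in control pools 1 to 4. Pools 1 and 2 were the high ones in both arms and pools 3 and 4 the low ones, so the groups overlapped and the gap between pools was larger than the gap between arms. The log2 ratio was 0.75, 0.28 and 0.71 in replicates 1 to 3 and -0.20 in replicate 4. Its mean was 0.38 ± 0.45 (SD, n = 4; limma 95% interval -0.022 to 0.79, adjusted p = 0.479). Computed from the scanner files by loess, the mean was 0.15 ± 0.33, and without replicate 4 the series matrix mean was 0.58.

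LAMC1 encodes the gamma 1 chain, the usual partner of the beta 1 chain, and its 3 probes allowed a check within the gene. All 3 had means just below 0, at -0.069 ± 0.42, -0.13 ± 0.50 and -0.10 ± 0.40 (SD, n = 4) from the brightest to the dimmest probe. For the brightest, the pool signal was 9.80, 10.35, 9.02 and 9.30 in FSH pools 1 to 4 and 9.90, 10.00, 9.62 and 9.71 in control pools 1 to 4. As for LAMB1, pools 1 and 2 exceeded pools 3 and 4 in each arm. FSH pools spanned 1.33 log2 units and control pools 0.38. In replicate 2 every LAMC1 probe was above 0, at 0.45, 0.25 and 0.41, and in replicates 3 and 4 every one was below 0, reaching -0.86 for the middle probe in replicate 4. These replicate differences therefore appeared on separate probes, although the mean did not differ from 0 beyond its spread (adjusted p = 0.914, 0.845 and 0.849 in limma). The limma 95% interval of the brightest probe ran from -0.46 to 0.32. Its mean turned to 0.091 without replicate 3 and to 0.00042 on the Cy5 slide, and those of the other probes turned to 0.12 and 0.033 without replicate 4. The dimmest probe stood at -0.040 without replicate 3.

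LAMA1 encodes the alpha 1 chain, known from early embryonic basement membranes. Both channels exceeded the limit on every array, with spot intensities from 3185 to 19741. The pool signal was 12.61, 12.40, 12.62 and 12.69 in the FSH pools and 12.63, 12.58, 13.49 and 12.88 in the control pools. Control pool 3 stood highest, and FSH pools lay within 0.29 log2 units of each other. The ratio was 0.077, -0.078, -1.05 and -0.31 in replicates 1 to 4, with a mean of -0.34 ± 0.50 (SD, n = 4; adjusted p = 0.561 in limma). Without replicate 3 the mean was -0.10. In the same control pools 1 to 4 the oocyte marker BTG4, a regulator of maternal mRNA decay, read 7.14, 7.12, 9.37 and 8.29, against 6.97 to 7.29 in the FSH pools. BTG4 was the oocyte marker farthest from 0, at -1.17 ± 1.49 (SD, n = 4), or -0.58 without replicate 3, and the list was mixed. Of the 13 tested markers, among 20 with a probe, 8 had their highest control signal in pool 3, 5 means were above 0, and the median ratio was -0.081. Some leads of pool 3 were slight. PADI6 and OOEP, named after their values were seen, read 7.023 and 7.18 there, against at most 7.021 and 7.16 in other control pools. The share of all tested genes with their highest control signal in pool 3 was not computed, so the count of 8 is only a description. The germ cell kinase gene MOS, named after its values were seen, was lowest in control pool 3, at 7.20. Over the 13, the log2 of their summed signal ran from 10.85 to 11.45 in control pools and from 10.83 to 10.91 in FSH pools. Floor signal enters such a sum: COL18A1, too dim to be tested, still read 6.99 to 7.05. The sums are therefore not amounts of oocyte RNA. The part of oocyte RNA in the LAMA1 ratio was not tested.

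**Figure D2:**
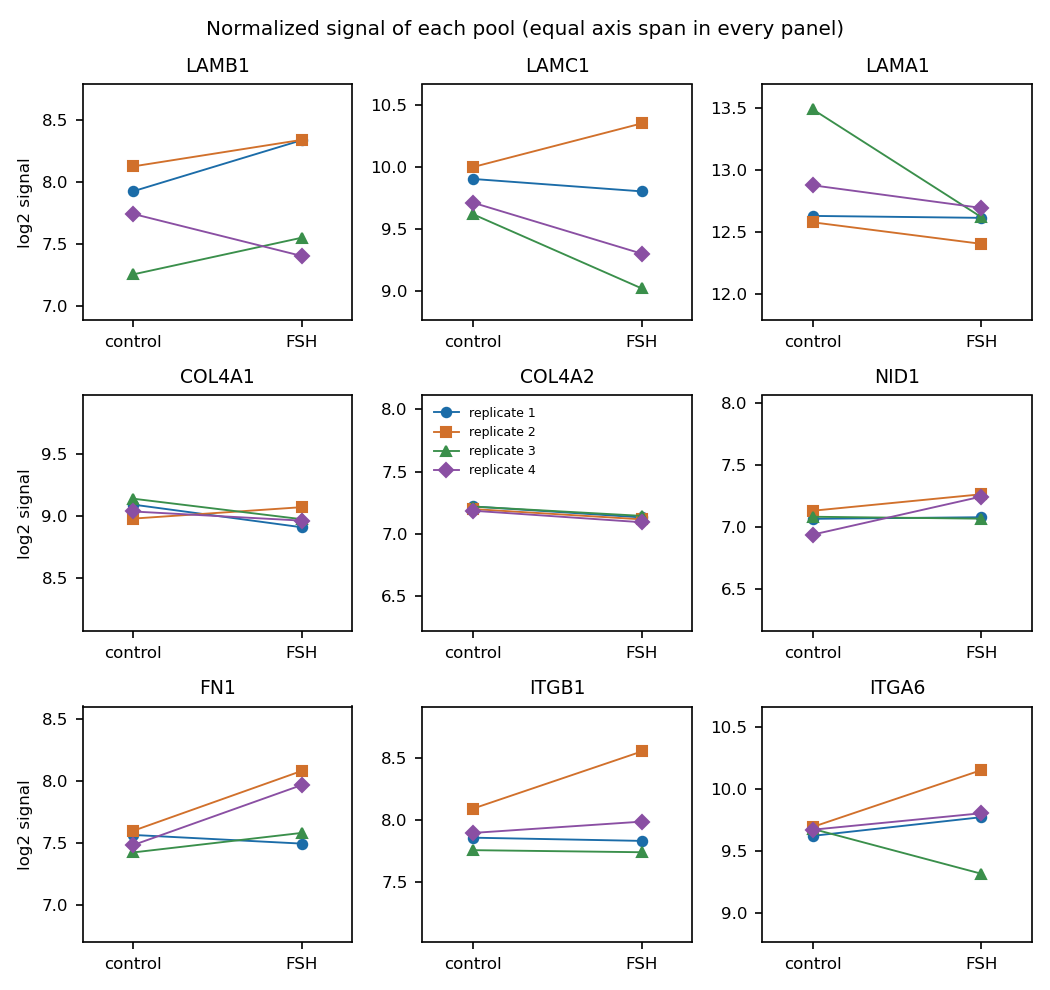
Normalized log2 signal (vertical axis, the same span in each panel) in the control and FSH pools for the 9 tested genes, with a line joining the pools of 1 replicate number. LAMB1 and LAMC1 differ mainly between replicate numbers, LAMA1 in control pool 3, and FN1 in FSH pools 2 and 4, while COL4A1 and COL4A2 hardly spread.

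COL4A1 and COL4A2 encode the chains of the common collagen IV trimer and are next to each other among protein-coding genes in RefSeq's annotation (assembly NIAB-ARS_B.indTharparkar_mat_pri_1.0). Both varied little. COL4A1 signals ran from 8.91 to 9.07 in FSH pools and from 8.98 to 9.14 in control pools, and its ratio was -0.023 ± 0.12 (SD, n = 4), or -0.0032 without replicate 3. The limma 95% interval of COL4A1, -0.23 to 0.18, was the narrowest of the members. COL4A2 signals were 7.13, 7.12, 7.14 and 7.09 in FSH pools 1 to 4 and 7.22, 7.20, 7.22 and 7.19 in control pools 1 to 4. All FSH pools were below all control pools, the only member for which the groups did not overlap, which held for 3.63% of all tested probes. COL4A2 was near the negative control limit, above it on 8 arrays in the FSH channel and 7 in the control channel. Its series matrix ratio was -0.14, 0.077, -0.25 and -0.19 in replicates 1 to 4, so replicate 2 went against the other replicates, and the mean was -0.13 ± 0.14 (adjusted p = 0.648 in limma). From the scanner files by loess the mean was -0.085 ± 0.0077, with all replicates below 0 and an adjusted p of 0.558.

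COL18A1 encodes collagen XVIII, a basement membrane collagen that carries heparan sulphate and from which endostatin is cut. The FSH channel exceeded the limit on 6 of 8 arrays and the control channel on 4, so COL18A1 was not tested. Its ratio ranged from -0.23 to 0.13 over the replicates, with a mean of -0.057 ± 0.16 (SD, n = 4), and no difference was detectable at this signal.

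NID1 encodes nidogen 1, which bridges laminin and collagen IV. It was dim as well: the FSH channel exceeded the limit on 7 of 8 arrays but the control channel on 4, so it passed through the FSH channel alone. Control values on the other arrays are at or under the limit, so its ratio is a description and no test is read from it. Signals were 7.08, 7.26, 7.07 and 7.24 in FSH pools 1 to 4 and 7.07, 7.13, 7.08 and 6.94 in control pools 1 to 4. FSH pools 2 and 4 were the high ones and the groups overlapped. The ratio was 0.30, 0.71, -0.18 and 0.97 in replicates 1 to 4, with a mean of 0.45 ± 0.50 (SD, n = 4). Its mean was 0.79 on the Cy5 slide and 0.11 on the Cy3 slide, a difference of 0.68 ± 0.19 over the replicates. Computed from the scanner files by loess, the NID1 mean was 0.11 ± 0.15. Leaving out 1 replicate gave 0.28 (without replicate 4) to 0.66 (without replicate 3).

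FN1 encodes fibronectin and had the largest mean ratio of the members. Its pool signal was 7.49, 8.08, 7.58 and 7.97 in FSH pools 1 to 4 and 7.56, 7.60, 7.42 and 7.48 in control pools 1 to 4. FSH pools 2 and 4 exceeded every control pool, FSH pool 3 exceeded all but control pool 2, and FSH pool 1 lay among the controls. The ratio was -0.14, 0.94, 0.37 and 0.82 in replicates 1 to 4. The mean was 0.50 ± 0.49 (SD, n = 4), or 1.41-fold, with a limma 95% interval of 0.060 to 0.94, an unadjusted p of 0.0315 and an adjusted p of 0.417. Both channels of FN1 exceeded the limit on all 8 arrays, and both dye orientations gave a mean above 0 (0.43 on the Cy5 slide, 0.57 on the Cy3 slide). From the scanner files by loess the FN1 mean was 0.26 ± 0.27, and leaving out 1 replicate gave 0.35 (without replicate 2) to 0.71 (without replicate 1). Theca and stroma markers, from cells that also make fibronectin, had a summed log2 signal from 13.09 to 13.92 in FSH pools and from 13.05 to 14.02 in control pools. ACTA2, named after its values were seen, made up most of this sum, at 12.41 to 13.64 in FSH pools and 12.58 to 13.70 in control pools. Of the 12 theca and stroma genes 9 were tested, and DCN, PDGFRB and CYP17A1 were too dim. The list went both ways, with 4 of 9 means above 0 and a median of -0.044. COL3A1, the farthest from 0, stood at -0.42 ± 0.30, but at -0.16 by loess. Their part in the FN1 ratio was not tested.

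ITGB1 and ITGA6 encode the beta 1 and alpha 6 integrin subunits, which together form a laminin receptor. The ITGB1 signal was 7.83, 8.55, 7.74 and 7.99 in FSH pools 1 to 4 and 7.86, 8.09, 7.76 and 7.89 in control pools 1 to 4. Pool 2 was the highest in both arms, and FSH pools 1 and 3 were a little below their control pools. The ITGB1 ratio was -0.089, 0.84, -0.038 and 0.23 in replicates 1 to 4, with a mean of 0.24 ± 0.43 (SD, n = 4; adjusted p = 0.641 in limma), and without replicate 2 it was 0.036. The ITGA6 signal lay between 9.62 and 9.70 in control pools and was 9.78, 10.15, 9.32 and 9.81 in FSH pools 1 to 4. Control pools thus spanned 0.072 log2 units and FSH pools 0.83, with pool 2 at the top and pool 3 at the bottom. The ITGA6 ratio was 0.014, 0.52, -0.26 and 0.14, with a mean of 0.10 ± 0.32 (adjusted p = 0.820 in limma), which became -0.035 without replicate 2 and 0.22 without replicate 3.

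Replicates disagreed in direction. Of the 9 tested genes, 5 had a ratio above 0 in replicate 1, 8 in replicate 2, 2 in replicate 3 and 4 in replicate 4. The members' median ratio was 0.014, 0.45, -0.18 and -0.022 in replicates 1 to 4, while the median over all tested genes lay between 0.013 and 0.016. LAMA1 was the only gene below 0 in replicate 2, and LAMB1 and FN1 the only ones above 0 in replicate 3. Pool signals ranged over a median of 0.81 log2 units across the 8 pools for the 9 members, against 0.36 for all tested genes, and 6 of the 9 exceeded that value. The SD of the replicate ratios had a median of 0.43 for the members and 0.22 for all tested genes. Neither comparison was matched for signal. The dim COL4A2 and NID1 ranged over 0.13 and 0.33 log2 units across the pools, and the brighter COL4A1 over 0.23. The members are therefore not shown to vary more than other genes of like signal.

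Pool signals also show which members ran alike, as a description over 8 pools that share arrays in pairs. The most alike were NID1 and FN1 (Pearson r = 0.87), ITGB1 and ITGA6 (r = 0.84) and FN1 and ITGB1 (r = 0.80), whereas LAMB1 and LAMC1 reached r = 0.75. COL4A1 and COL4A2 gave r = 0.59. The lowest values were r = -0.72 for COL4A2 with FN1 and r = -0.71 for LAMB1 with LAMA1. NID1 and COL4A2 lay near the negative control limit and ranged over only 0.33 and 0.13 log2 units, which limits what their r values can show. LAMC1 and LAMB1 had the widest ranges over the pools, and among 11882 other genes the closest to LAMC1 were TRIM33 (r = 0.99), CWF19L1 (r = 0.99) and PRPF3 (r = 0.98). The closest to LAMB1 were RAD17, MED1 and EDC3 (r = 0.99 for each). These likenesses were not tested. Pools 1 and 2 ran alike over all tested probes too, with r = 0.64 between FSH pool 1 and control pool 2 in deviations from the group means. That pattern is therefore not particular to LAMB1 and LAMC1.

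Slide and dye orientation coincide in this study, so they cannot be told apart. The members' means had the same sign in both orientations for 9 of the 11 tested probes. The exceptions were the brightest LAMC1 probe, at 0.00042 on the Cy5 slide and -0.14 on the Cy3 slide, and COL4A1, at 0.065 and -0.11. The largest mean gaps between orientations were those of NID1 and of LAMA1, which stood at -0.53 on the Cy5 and -0.15 on the Cy3 slide.

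**Figure D3:**
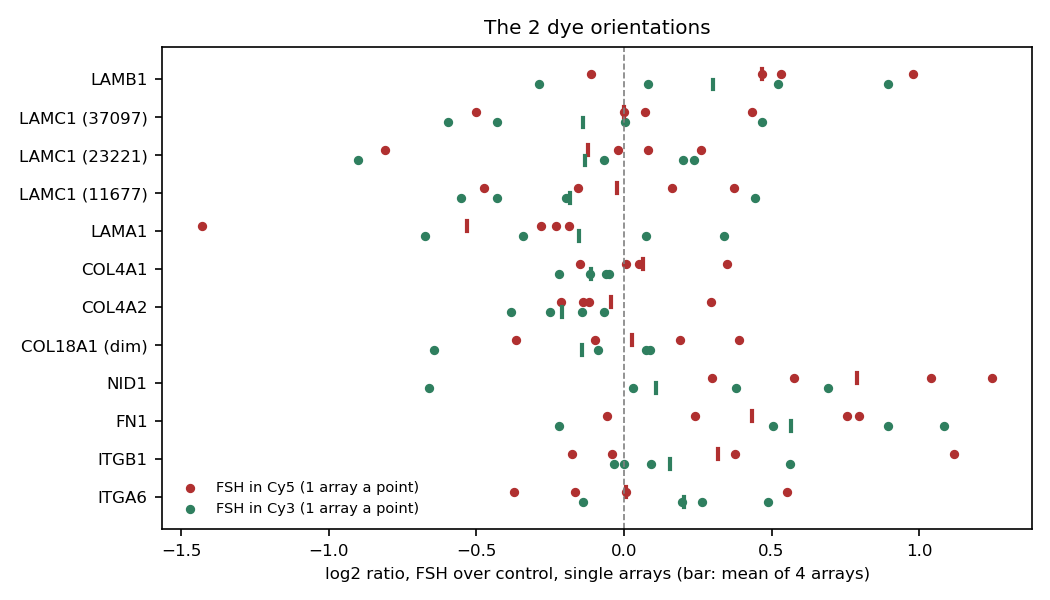
Log2 ratio of FSH over control on single arrays (horizontal axis) for the 12 probes, with arrays carrying FSH in Cy5 and in Cy3 drawn apart and a bar for the mean of 4 arrays. The orientations lie close for LAMC1 and FN1 and apart for NID1, whose means are 0.79 and 0.11.

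Every tested member kept the sign of its mean when ratios were computed from the scanner files by loess, but several sizes moved. FN1, NID1, LAMB1 and ITGB1 came out smaller than in the series matrix, at 0.26, 0.11, 0.15 and 0.13. LAMA1 stood at -0.31 ± 0.38 by loess and -0.34 ± 0.50 in the series matrix. The brightest LAMC1 probe stood at -0.19 by loess, farther from 0 than in the matrix.

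**Figure D4:**
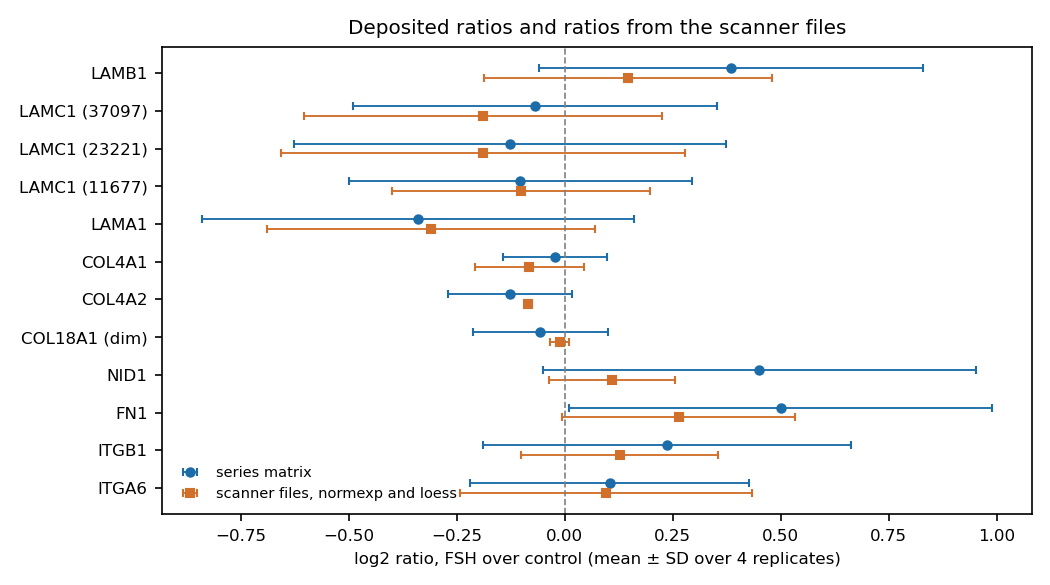
Mean log2 ratio of FSH over control ± SD over 4 replicates (horizontal axis) for the 12 probes, from the series matrix and from the scanner files by normexp and loess. All tested means keep their side of 0, and NID1, FN1 and LAMB1 lie nearer to 0 by loess.

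Beyond the 10 genes, a list of 104 other matrix and adhesion genes put the members in context. Of these, 92 had a probe and 70 were tested, and 0 passed the adjusted test. At an unadjusted p under 0.05, 4 of 70 were higher with FSH, against 5.96% of all tested genes, and 7 were lower, against 5.6%. The sign was the same in all 4 replicates for 18 of 70, against 20.7% of all tested genes, and the list median was -0.027.

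Collagen IV has other chains, and the neighbouring genes COL4A5 and COL4A6 encode those of a trimer found under some epithelia and around smooth muscle. COL4A5 had the largest ratio of the list, 0.20, 0.97, 0.88 and 1.25 in replicates 1 to 4, with a mean of 0.83 ± 0.45 (SD, n = 4; unadjusted p = 0.00267 and adjusted p = 0.295 in limma). Its signal was 8.85, 9.41, 9.11 and 9.80 in FSH pools 1 to 4 and from 8.57 to 8.74 in control pools. The groups did not overlap, which held for 3.63% of all tested probes. The other tested COL4A5 probes stood at 0.50 ± 0.46 and 0.057 ± 0.12. COL4A6, named after its values were seen, stood at 0.40 ± 0.084, above 0 in all 4 replicates (adjusted p = 0.295 in limma), but at 0.10 by loess. Over the 9 tested genes of this collagen list, 7 means were above 0 and the median was 0.13. Of the 4 other laminin genes tested, LAMB2, which encodes the beta 2 chain, stood lowest at -0.25 ± 0.17, and at -0.087 by loess.

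Enzymes and chaperones that fold and crosslink collagen formed the sublist with the lowest median, -0.30 over 11 tested genes, of which 10 had means below 0. Over all tested genes 51.0% of means were above 0. At an unadjusted p under 0.05, 4 of the sublist were lower, against 5.6% of all tested genes, and 1 was higher, against 5.96%. In the adjusted test 0 passed. PLOD1, a lysyl hydroxylase, stood at -0.55 ± 0.49 (SD, n = 4), below 0 in replicates 2 to 4, and its FSH pools all lay below its control pools. Groups without overlap were found for 3.63% of all tested probes. P4HB, the beta subunit of prolyl hydroxylase, stood at -0.54, -0.11, -0.67 and -0.30 in replicates 1 to 4, with a mean of -0.40 ± 0.25 (adjusted p = 0.319 in limma). The others at that threshold, named after their values were seen, were P4HA1 at -0.53 ± 0.44 and PLOD2 at -0.39 ± 0.32. PLOD2 stood at -0.24 without replicate 3. The other tested probes were nearer to 0, at -0.15 ± 0.58 and -0.22 ± 0.44 for P4HA1 and at -0.23 ± 0.36 and -0.17 ± 0.14 for PLOD2. By loess PLOD1, P4HA1, PLOD2 and P4HB stood at -0.64, -0.56, -0.32 and -0.30. With median centring without loess they stood at -0.55, -0.47, -0.18 and -0.20, so the sizes for PLOD2 and P4HB depended on the normalization. On the higher side PPIB, a prolyl isomerase gene, stood at 0.39 ± 0.25, and at 0.23 by loess. The median of this sublist was -0.15, -0.096, -0.42 and -0.30 in replicates 1 to 4.

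Linkers and proteoglycans had a median of -0.014 over 11 tested genes, with AGRN, the agrin gene, at -0.23 ± 0.14 and SMOC2, which encodes a calcium-binding matrix protein, at -0.31 ± 0.29. SMOC2 stood at -0.17 without replicate 3 and at -0.15 by loess. Among 13 tested integrin genes other than the members the median was 0.023. ITGA11, a collagen-binding subunit, stood at 0.29 ± 0.14, above 0 in all 4 replicates (adjusted p = 0.350 in limma), but at 0.12 by loess. ITGAV, whose product binds fibronectin and vitronectin, stood at 0.39 ± 0.48, at 0.17 without replicate 3 and at 0.23 by loess. In the adhesion plaque sublist 16 of 22 means were below 0, and the median was -0.086. CD151, a tetraspanin gene whose product binds laminin-binding integrins, stood at -0.38 ± 0.21, below 0 in all 4 replicates (adjusted p = 0.310 in limma). SDC4, which encodes a proteoglycan co-receptor for fibronectin, ranged from -1.53 in replicate 1 to 0.55 in replicate 3. The SDC4 mean was -0.51, but -0.17 without replicate 1 and -0.86 without replicate 3.

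**Figure D5:**
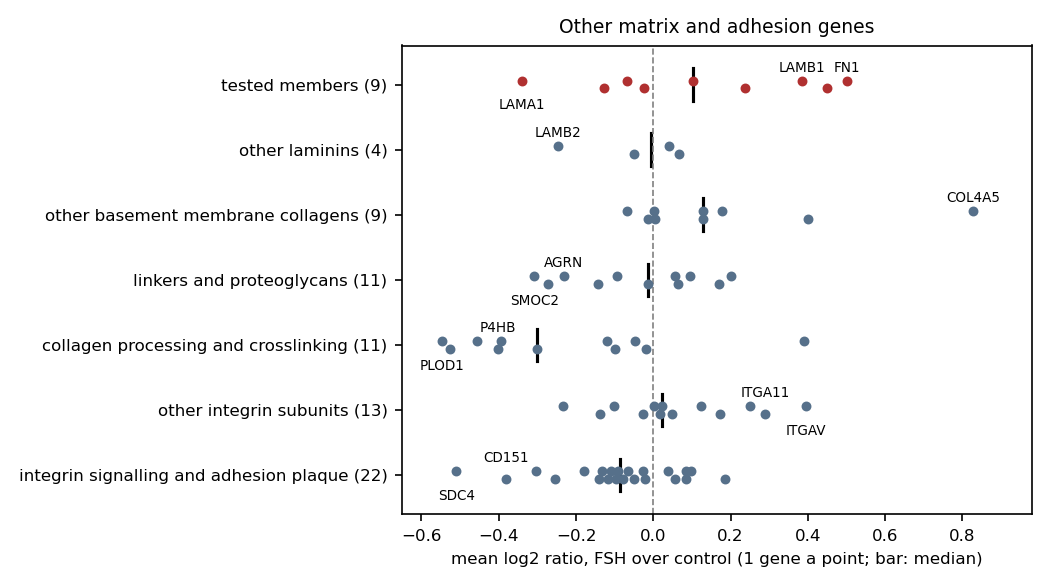
Mean log2 ratio of FSH over control (horizontal axis, 1 gene a point, bar for the median) for the 9 tested members and the 6 sublists of other matrix and adhesion genes, with the number tested in brackets. COL4A5 lies farthest to the right at 0.83, and 10 of 11 collagen processing genes lie left of 0.

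Markers of other cell types were read beside these values. The endothelial list had 6 of 10 genes tested, with PECAM1, KDR, TIE1 and EMCN too dim, and its summed log2 signal was 11.11 to 12.40 in FSH pools and 11.84 to 12.50 in control pools. MCAM made up most of it and stood at -0.58 ± 0.93 (SD, n = 4), or -0.14 without replicate 4, while VWF and CDH5 had pool signals no higher than 7.08. Immune markers had 6 of 10 genes tested and summed log2 signals of 10.02 to 10.82 in FSH pools and 10.07 to 11.05 in control pools, with LYZ at 0.46 ± 0.46, or 0.25 without replicate 4 and 0.21 by loess. Red blood cell markers had 3 of 4 genes with a probe tested, at 8.77 to 8.86 and 8.79 to 8.91, and 2 of the 3 means were above 0, with a median of 0.089. As for the oocyte markers, floor signal enters these red blood cell sums. HBA, the farthest from 0, stood at -0.20 ± 0.28, or -0.11 without replicate 4. Cumulus and granulosa markers had a median ratio of -0.32, at -0.015, -0.21, -0.37 and -0.80 in replicates 1 to 4. Of their 14 means 13 were below 0, whereas 51.0% of all tested genes were above 0. INHBA, an activin and inhibin subunit gene, stood at -0.91 ± 0.47. The summed log2 signal of these markers was 15.12 to 15.78 in FSH pools and 15.96 to 16.11 in control pools, so the sums did not overlap. A sum weighs bright genes most, and INHBA was the brightest in every control pool, at 14.53 to 14.76 against 13.26 to 14.03 in FSH pools. INHA, the next in control pools and named after its values were seen, overlapped, at 13.77 to 14.03 against 13.07 to 13.98. The part of these lists in the members' ratios was not tested.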

How the data were processed

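Amplified cumulus RNA was hybridised to 2-colour bovine arrays, 8 on 2 slides. The deposited series matrix holds the authors' log2 ratios per probe. They matched the other deposited table of log2 ratios after turning the arrays with FSH in Cy3, to within 5.0e-06. Against the scanner files, r across probes was 0.459 to 0.776, and the slope on loess ratios was 1.10 to 1.28, which settled log2 scale and direction as FSH over control. For replicates 4 to 1 in descending order, column medians were 0.0011, -0.0038, 0.0092 and 0.0082 on the Cy5 slide and 0.018, 0.011, 0.015 and 0.0089 on the Cy3 slide. The authors' background correction and normalization are not given in the sources used here. The deposited scanner files hold spot and background intensity on a linear scale. The limit was the mean plus 2 SD of 153 negative control spots per array and channel.

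Ratios of the 4 replicates were tested with limma 3.58.1 in R 4.3.3 (intercept, eBayes, Benjamini-Hochberg over all tested probes or genes). The brightest probe stood for a gene. Pool signals came from normexp (offset 50), loess and Aquantile. Alternatives used scanner ratios, other filters, single slides, left-out replicates, blocks and unpaired channels. The fit was tested on simulated data.

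Platform annotation, which can be old, gave 1 symbol to 21790 probes and none to 22004. Members and lists were chosen with earlier results of these data known. The text names all members, from each matrix sublist the gene with the lowest p and that with the mean farthest from 0, from each marker list the gene with the mean farthest from 0, and the 3 genes most like each of the 2 members with the widest range. Nothing in the labels shows separate animals per pool, so the p-values measure the spread between these pools.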

Additional observations from a re-analysis of the deposited data

Results flagged for a closer look

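No member was marked as a sample far from the others, in groups of 4 of which chance marks about 1 in 20. Among the other named genes, control pool 3 stood apart for the stroma marker COL3A1, at a log2 signal of 7.13 against 7.35 to 7.40 in the other control pools. The same pool stood apart for the endothelial and mural marker MCAM, at 11.53 against 12.23 to 12.31. FSH pool 4 stood apart for the immune marker LYZ, at 7.60 against 7.12 to 7.18.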

How the results depend on the processing

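No member passed the adjusted limma test under any of the 14 alternatives, whose adjusted p lay between 0.108 and 1.00. Of 151 member values, 7 changed sign, and these were means within 0.13 of 0. On the Cy5 slide the mean turned to 0.00042 for the brightest LAMC1 probe and to 0.065 for COL4A1. Without one replicate, the means of the LAMC1 probes lay between -0.24 and 0.091, -0.25 and 0.12, and -0.27 and 0.033, from the brightest to the dimmest, that of COL4A1 between -0.079 and 0.013, and that of ITGA6 between -0.035 and 0.22. The cause was not tested. Over all features, 26 probes passed on the Cy5 slide and 2 on the Cy3 slide, and leaving out 1 replicate gave 0 to 41 probes and 0 to 19 genes, the upper values without replicate 3. Taking the 8 arrays singly with the replicate number as a replicate block called 555 probes and 209 genes, and with a dye term 416 and 159, COL4A5 (adjusted p = 0.0196 and 0.0308) and INHBA (0.0321 and 0.0352) among them. These fits take both arrays of a replicate as separate, correlated values. The numbers were not shown to pair the pools. Over all tested probes, deviations from the group means correlated with r = 0.70, 0.70, 0.62 and 0.066 for numbers 1 to 4. Of the FSH pools, 3 of 4 correlated best with their own number. Unlike numbers reached 0.64 (FSH pool 1, control pool 2), 0.59 (FSH pool 2, control pool 1) and 0.74 (FSH pool 4, control pool 3). FSH pool 1 with control pool 3 gave -0.72. Member probes higher at an unadjusted p under 0.05 numbered 2 in the main analysis with NID1 counted, 0 in each setting from the scanner files and in the unpaired one, 1 with the stricter filter (which drops NID1) and on the Cy3 slide, and 0 to 2 without one replicate. They numbered 3 on the Cy5 slide and 3 with the replicate block, with or without a dye term. Member probes lower at that threshold were 1 in each scanner setting, in the unpaired one and on the Cy5 slide. Matrix list genes higher numbered 4, but 2 with normexp and loess, with the stricter filter and unpaired, and 5 on the Cy5 slide and with the replicate block. Matrix list genes lower numbered 7, but 2 with median centring, 11 with the replicate block, 3 unpaired and 3 to 7 without one replicate. The members' median lay between -0.035 and 0.22, with its lowest value without replicate 2 and its highest without replicate 3. NID1, COL4A2 and COL18A1 lie near the negative control limit, and low signal limits what can be read from them.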
